A study of Mus musculus with 4 samples.

Results

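Intermediate mesoderm cells were examined in single-cell RNA sequencing (scRNA-seq) of the caudal part of mouse embryos at E8.5. A cell was taken as intermediate mesoderm when its unique molecular identifiers (UMIs, each marking 1 captured transcript) summed to at least 2 for *Pax8* and *Pax2*, were at least 1 for *Lhx1*, and were at most 1 for *Tcf15* and at most 1 for *Sox2*. The rule was applied to 20198 cells, those left after removing any with fewer than 3000 detected genes, fewer than 7500 UMIs or over 7% of UMIs from mitochondrial genes, and 225 cells met it. The WT group was a pool of cells from 5 embryos and the *Grhl3*-null group was a pool from 3 embryos, all from intercrosses of *Grhl3* heterozygotes, and each pool was run in 2 reactions. *Grhl3*-null embryos carry a constitutive loss of *Grhl3*, a transcription factor gene needed for neural tube closure, and the lines were kept on a pure C57BL/6 background. Every p-value given here therefore compares 2 pools of cells and holds the spread between reactions but none between embryos.

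The cells numbered 46 and 40 in the WT libraries and 70 and 69 in the *Grhl3*-null libraries. Summed over these cells, the WT libraries held 1742947 and 1759926 UMIs, and the null libraries 3299506 and 3024401. The median per cell was 32492.5 and 33052 UMIs in WT against 38545.5 and 37912 UMIs in the null libraries, so the null cells were read more deeply. Between 7 and 16 cell barcodes were shared by any pair of libraries, at most 0.259% of the smaller library.

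Intermediate mesoderm is the strip of mesoderm between the somite-forming paraxial mesoderm and the lateral plate, and it gives rise to the kidneys and gonads. Pax2 and Pax8 act together to specify its nephric lineage, and Lhx1 is required for that lineage to extend. The nephric duct forms from its first cells and elongates caudally, with Gata3 acting upstream of the receptor tyrosine kinase Ret, which receives Gdnf with the help of its co-receptor Gfra1. Osr1 marks an earlier and wider domain that also contributes to the mesenchyme from which nephrons arise.

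The genes of the rule had the following levels, which chose the cells and are given without a test. *Pax8* (ENSMUSG00000026976, mm10 chr2:24420560-24475599, minus strand) stood at 142 and 106 CPM (UMIs of the gene scaled to a common total for all UMIs summed over the cells of a library) in the WT libraries and at 113 and 119 CPM in the null libraries. *Pax2* (ENSMUSG00000004231, chr19:44756045-44837871, plus strand) stood at 104 and 75.0 CPM in WT and at 79.4 and 106 CPM in null. *Lhx1* (ENSMUSG00000018698, chr11:84518284-84525535, minus strand) stood at 259 and 243 CPM in WT and at 216 and 198 CPM in null. A cell held a median of 4 UMIs of *Pax8*, 3 of *Pax2* and 7 of *Lhx1*, with maxima of 21, 19 and 50 UMIs. UMIs of both *Pax8* and *Pax2* were present in 174 of the 225 cells, of *Pax8* alone in 32 and of *Pax2* alone in 19. *Tcf15* and *Sox2*, a somite and a neural gene, summed to 2.03 ± 1.51 and 1.56 ± 0.496 CPM (SD, n = 4 libraries).

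Some cells lay close to the limits of the rule. Exactly 2 UMIs of *Pax8* and *Pax2* were held by 41 of the cells, while 120 further cells met every other limit with 1 UMI. Exactly 1 UMI of *Lhx1* was held by 21 cells, while 356 cells met the other limits with none. The limits on *Tcf15* and *Sox2* removed 187 of the 412 cells that passed the other limits, 62 for *Tcf15* alone, 66 for *Sox2* alone and 59 for both. Those removed for both numbered 3 and 7 in the WT libraries and 35 and 14 in the null libraries.

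The label was checked with *Emx2* and *Osr1*, markers that the rule did not use, and the comparison with other cells is a description because the cells were chosen by measured genes. *Emx2* (chr19:59458372-59465357, plus strand), a homeobox gene needed for the urogenital system, had a UMI in 71.7% of the cells of WT library 1 (95% exact binomial interval 56.5 to 84.0%), 62.5% of WT library 2 (45.8 to 77.3%), 60% of null library 1 (47.6 to 71.5%) and 62.3% of null library 2 (49.8 to 73.7%). In endothelial cells, which should lack the gene, the share was at most 2.01% in any library, at median depths of 35460 to 39750 UMIs. After thinning every cell to 7500 UMIs, *Emx2* was still seen in 24.6 to 52.2% of the intermediate mesoderm cells of a library against at most 1.34% of the endothelial cells. *Osr1* (chr12:9570116-9581500, plus strand) had a UMI in 60.9% and 70% of WT cells and in 75.7% and 85.5% of null cells, against 4.76 to 8.33% of endothelial cells, and thinning left it in 39.1 to 53.6% of the cells of a library. Its level of 119 ± 19.4 CPM (SD, n = 4 libraries) was far above that of paraxial cells, at 17.1 CPM, but nearer that of lateral plate cells, at 85.8 CPM. Both markers were present as the label requires, and *Osr1* was shared with the lateral plate.

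Paraxial, lateral plate and endothelial cells were set beside them by their own marker rules and numbered 1658, 3861 and 539. The paraxial rule required *Meox1* and *Tcf15* and the lateral plate rule required *Foxf1*, so the levels of these genes in their own sets are fixed by selection. *Meox1*, a somite gene, stood at 107 ± 21.9 CPM against 543 CPM in paraxial cells and 6.3 CPM in lateral plate cells. *Foxf1*, a gene of the splanchnic lateral plate, stood at 30.7 ± 10.5 CPM against 246 CPM in lateral plate cells and 15.6 CPM in paraxial cells. *Foxc1*, which is expressed in paraxial and intermediate mesoderm, stood at 59.5 ± 10.9 CPM, below the 159 CPM of paraxial cells. *Pax3* was nearly absent at 1.26 ± 1.44 CPM against 85.3 CPM in paraxial cells.

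**Figure D1:**
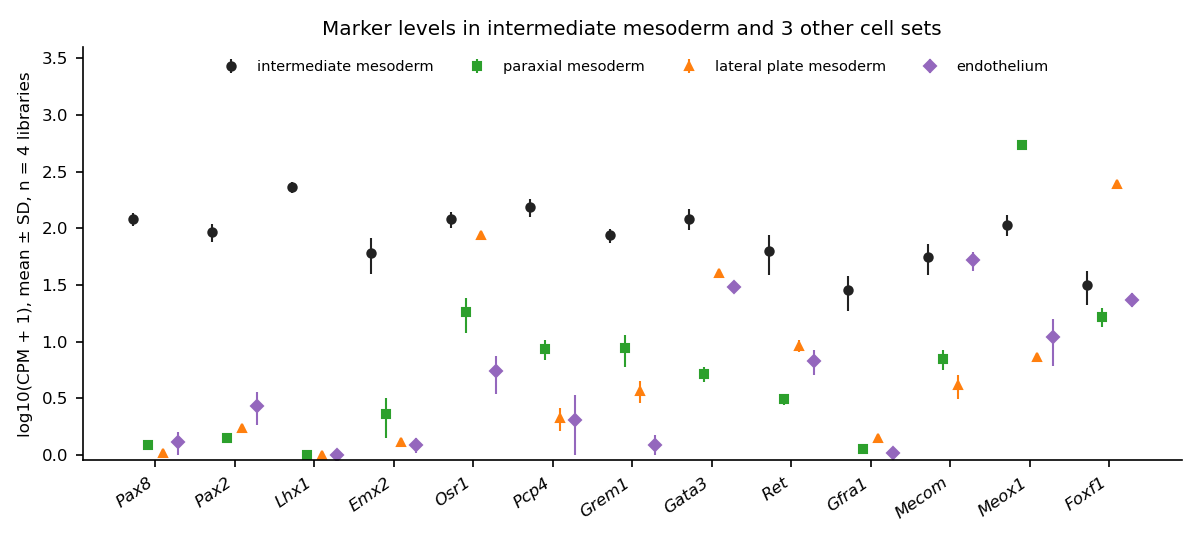
Levels of 13 genes as log10(CPM + 1) in intermediate mesoderm, paraxial mesoderm, lateral plate mesoderm and endothelial cells, with points for the mean and bars for the SD over 4 libraries. *Emx2*, *Pcp4*, *Ret* and *Gfra1* are highest in intermediate mesoderm, *Osr1* lies close to its lateral plate level, and *Mecom* is as high in endothelium.

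The 20 genes with the largest fold of intermediate mesoderm over all other filtered cells, leaving out those of the rule, were led by *Pcp4*, which encodes a small calmodulin regulator. It reached 195 and 144 CPM in the WT libraries and 132 and 142 CPM in the null libraries, a 17.5-fold excess over the other cells (5 CPM added to each side). *Gpx6* followed at 9.53-fold, then *Emx2* at 8.90-fold and *Grem1*, a secreted Bmp antagonist that acts in kidney development, at 8.34-fold. The genes of Ret signalling were present together, with *Ret* at 61.5 ± 24.2 CPM, its co-receptor *Gfra1* at 27.4 ± 9.83 CPM and its ligand *Gdnf* at 18.2 ± 2.58 CPM, against 0.67 CPM of *Gdnf* in the other cells. *Gata3* stood at 121 ± 25.7 CPM, against 39.4 CPM in lateral plate and 29.5 CPM in endothelial cells. *Mecom*, a zinc finger gene that is also active in endothelium, stood at 54.8 ± 17.3 CPM against 51.0 CPM in endothelial cells. *Lhx1os*, the antisense transcript beside *Lhx1*, and *Aldh1a3*, an enzyme that makes retinoic acid, were also among the 20. In 18 of these genes every library lay above every library of the paraxial, lateral plate and endothelial cells. The genes were picked for their fold over all other cells, which include these sets, so that order follows largely from the pick. How many of all genes have such an order was not counted.

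Genes of later nephron-forming mesenchyme were unevenly present. *Sall1* stood at 153 ± 9.88 CPM and *Eya1* at 25.0 ± 6.31 CPM, but paraxial cells held *Eya1* at 23.6 CPM. *Six2*, the marker of later nephron progenitors, gave 0.285 ± 0.33 CPM, and *Wnt9b* and *Cdh16*, genes of the mature duct epithelium, were at 0 UMIs in all 4 libraries. *Rdh10*, which makes the precursor of retinoic acid, was at 48.0 ± 5.79 CPM against 14.1 CPM in paraxial and 12.3 CPM in lateral plate cells, whereas *Aldh1a2* stood at 51.3 ± 19.3 CPM, below its 232 CPM in paraxial cells.

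The Hox genes, which mark position along the body axis, were described from 38 genes. Summed over paralogue groups 1 to 5 they reached 699.5 ± 38.2 CPM in intermediate mesoderm, 633 CPM in paraxial and 583 CPM in lateral plate cells. Over paralogue group 9 the sums were 276 ± 24.8, 319 and 549.5 CPM, and over groups 10 to 13 they were 7.89 ± 5.03, 12.7 and 158 CPM. In each of these sets the sums of groups 10 to 13 were lower in both null libraries than in both WT libraries, which was not tested. For intermediate mesoderm they were 7.46 and 14.8 CPM in WT against 2.73 and 6.61 CPM in null. They were 216 and 226 CPM in WT against 94.9 and 93.9 CPM in null for lateral plate cells. For paraxial cells they were 21.1 and 18.9 CPM against 7.73 and 3.01 CPM. Groups 10 to 13 were thus low in intermediate mesoderm, where *Hoxc10* gave 2.86 CPM against 67.5 CPM in lateral plate cells and within group 9 *Hoxa9* gave 25.2 CPM against 133 CPM. *Hoxb9*, of the same group, was the most abundant Hox gene of the cells, at 180 and 239 CPM in WT and 227 and 220 CPM in null. *Hoxa5* had the opposite order, at 103 CPM against 41.2 CPM.

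**Figure D2:**
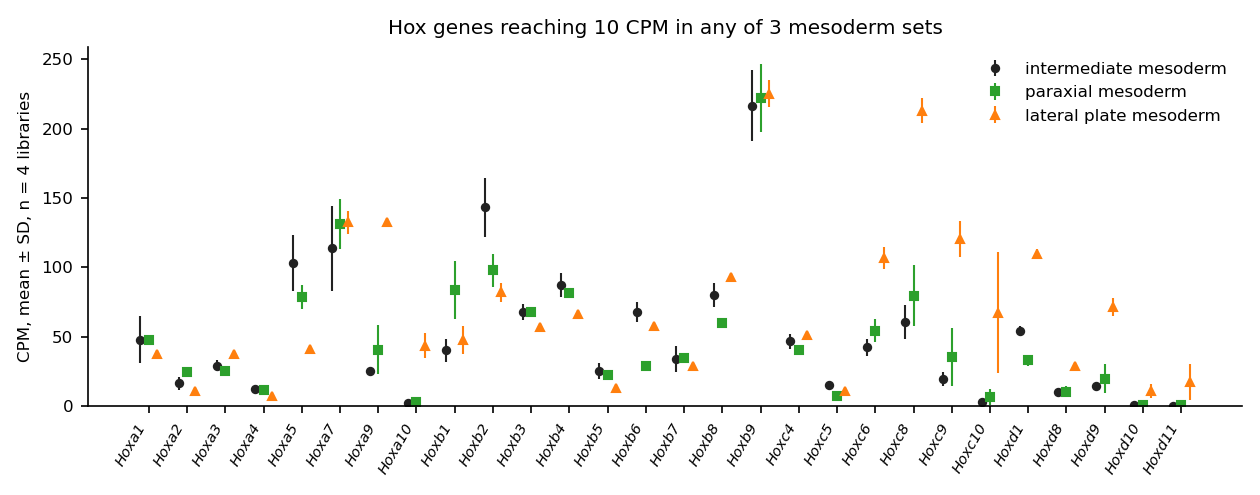
Levels in CPM of the 28 Hox genes that reach 10 CPM in any of 3 mesoderm sets, with points for the mean and bars for the SD over 4 libraries. *Hoxa9*, *Hoxa10*, *Hoxc8*, *Hoxc9*, *Hoxc10* and *Hoxd9* are low in intermediate mesoderm and high in lateral plate mesoderm.

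The 225 cells were not alike. *Tfap2a*, a transcription factor gene of the duct list that is also a surface ectoderm marker, had a UMI in 67 of them, and the cells were described on either side of it, a split chosen after its values were seen and given without a test. Cells with *Tfap2a* held *Aldh1a3* at 111 CPM against 7.49 CPM in those without, *Plac8* at 210 against 23.3 CPM, *Npnt*, an extracellular ligand needed for kidney outgrowth, at 77.7 against 9.29 CPM and *Ret* at 142 against 26.3 CPM. They held less *Grem1*, at 18.0 against 113 CPM, and less *Osr1*, at 38.3 against 146 CPM. *Sall1* and *Meox1* differed little, at 176 against 148 CPM and at 106 against 109 CPM. Their median depth was 33580 UMIs, below the 37320 UMIs of the cells without *Tfap2a*. Across the 225 cells, the Pearson correlation of log-normalised levels of *Tfap2a* was 0.61 with *Plac8*, 0.60 with *Mecom* and -0.49 with *Osr1*, and *Osr1* correlated with *Grem1* at 0.55. These points share 4 libraries and their depth.

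The same genes differed between male and female cells, in opposite directions in the genotypes. Male calls needed 2 or more UMIs summed over 4 Y-linked genes with no more than 2 *Xist* UMIs, and female calls needed 3 or more *Xist* UMIs with no more than 1 Y-linked UMI. Male-called cells made up 9 of 46 and 15 of 40 in the WT libraries and 33 of 70 and 41 of 69 in the null libraries, and female-called cells 33, 21, 24 and 22. The sources do not give how many embryos of each sex were pooled, so a sex within a genotype may stand for a single embryo. By group there were 24 male and 54 female WT cells and 74 male and 46 female null cells, with median depths of 34634.5, 32068.5, 37626.5 and 39460.5 UMIs.

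*Tfap2a* gave 0 UMIs in male WT cells of both libraries, 24.6 and 18.9 CPM in male null cells, 70.7 and 55.6 CPM in female WT cells, and 0.852 and 1.08 CPM in female null cells. The level was thus at least 6.79-fold higher in null than in WT among male cells (floor of 3 UMIs over the group). Among female cells null held 2 UMIs, and the level was at least 18.3-fold lower (lower end of the 95% counting interval). The share of cells with a UMI was 0 of 24, which allows up to 12.5% (3 counts of the total), in male WT cells, 33.8% (23.2 to 45.7%) in male null cells, 59.3% (45.0 to 72.4%) in female WT cells and 4.35% (0.531 to 14.8%) in female null cells, and 0, 14.9, 33.3 and 0% after thinning to 7500 UMIs. Endothelial cells had a *Tfap2a* UMI in 3.33 to 7.32% of cells per library, so the female null share is at that background.

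*Pcp4* stood at 5.87 and 26.4 CPM in male WT cells, 237 and 221 CPM in male null cells, 270 and 249.5 CPM in female WT cells, and 17.0 and 30.3 CPM in female null cells. It was 12.0-fold higher in null among male cells (7.54 to 20.4) and 11.4-fold lower among female cells (8.48 to 15.7). *Ret* stood at 11.7 and 4.95 CPM in male WT, 75.2 and 55.1 CPM in male null, 136 and 87.3 CPM in female WT, and 14.5 and 32.5 CPM in female null cells. *Gata3* stood at 52.8 and 62.7, 117 and 134, 194 and 179, and 41.7 and 93.1 CPM in the same order. For each of these genes the male WT and female null cells were the low groups, and the libraries of the genotypes did not overlap within a sex.

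*Aldh1a3* had the same order with a wider range, at 5.87 and 4.95 CPM in male WT, 29.4 and 22.4 CPM in male null, 135 and 64.6 CPM in female WT and 0 UMIs in both libraries of female null cells, where it was at least 73.5-fold lower than in WT. *Grem1* had the reverse order, at 156 and 183 CPM in male WT, 71.8 and 52.8 CPM in male null, 43.3 and 32.9 CPM in female WT, and 174 and 149 CPM in female null cells. *Osr1* went with *Grem1*, at 203 and 216, 114 and 71.7, 79.9 and 102, and 184 and 143 CPM. *Gdnf* had no such order, at 5.87 and 26.4 CPM in male WT, 20.5 and 14.3 CPM in male null, 26.6 and 12.5 CPM in female WT, and 17.0 and 22.7 CPM in female null cells, with overlapping libraries in both sexes.

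**Figure D3:**
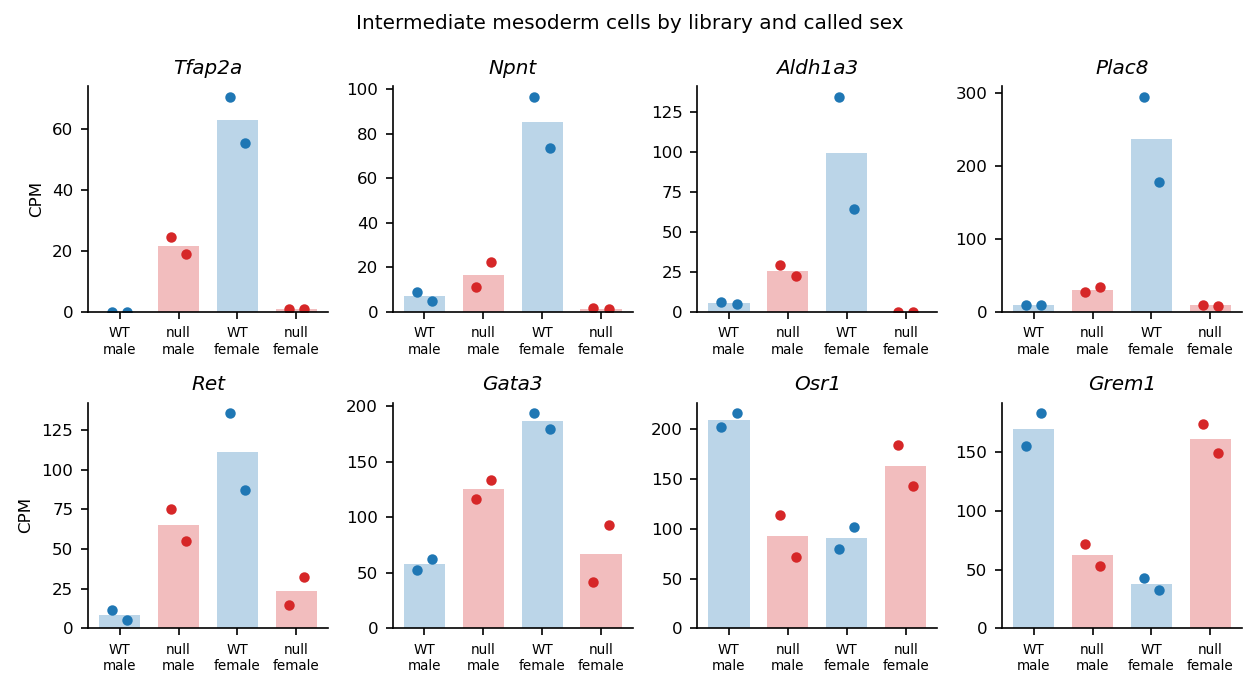
Levels in CPM of 8 genes in male-called and female-called intermediate mesoderm cells, with a point for each of the 2 libraries of a genotype and a bar for their mean. *Tfap2a*, *Npnt*, *Aldh1a3*, *Plac8*, *Ret* and *Gata3* are low in WT male and null female cells and highest in WT female cells, and *Osr1* and *Grem1* are high in WT male and null female cells.

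The difference between the sexes in their genotype effect was tested by edgeR's quasi-likelihood test on the 8 sums of library and sex, with the library as a block. Of 8642 genes tested, 766 passed at an adjusted p under 0.05, a background of 8.86%. Of the 20 genes with the largest fold over other cells, 16 passed with a more positive difference in males (5.52% of all genes) and 2, *Grem1* and *Qrfpr*, with a more positive one in females (3.34%). Among them, *Pcp4* had an interaction of 7.0 ± 0.35 on the log2 scale (SE, adjusted p = 7.8e-15), *Ret* of 5.22 ± 0.50 (adjusted p = 1.2e-08), *Gata3* of 2.51 ± 0.29 (adjusted p = 3e-07) and *Grem1* of -3.62 ± 0.26 (adjusted p = 5.4e-11), with 1110032F04Rik and *Gdnf* not passing (adjusted p = 0.25 and 0.89). Of 14 tested genes of the nephric lineage and duct list, 13 passed. Of the 11 nephrogenic mesenchyme genes tested 4 passed. The Hox genes had 8 of 25 pass, the Bmp pathway 5 of 19, the retinoic acid pathway 3 of 12 and the Wnt and Notch pathway 5 of 18. Genes of the dissociation response, a sign of how cells were handled, moved with sex as well, with 3 of 6 passing and opposite signs in the 3 fitted in both sexes. Their median was 0.66 over the 3 genes fitted in males and -0.69 over the 6 fitted in females, so the medians cover different genes. The part of these genes in the result was not tested. Sex, embryo and any difference in stage between embryos cannot be told apart here.

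Intermediate mesoderm cells made up a larger share of the null libraries. They were 0.843% of the filtered cells of WT library 1 (95% exact binomial interval 0.618 to 1.12%) and 0.782% of WT library 2 (0.559 to 1.06%), against 1.45% (1.13 to 1.82%) and 1.44% (1.12 to 1.82%) of the null libraries. The means were 0.812 ± 0.043% and 1.44 ± 0.0017% (SD, n = 2 libraries each), a difference of 1.78-fold. The filter kept 88.2 and 89.8% of the deposited cells in the WT libraries and 78.4 and 77.4% in the null libraries. With all deposited cells as the denominator the difference was 1.56-fold. The exact two-sided permutation test gave p = 0.333, the smallest it can give with 2 libraries against 2. The null cells were also read more deeply, and the rule needs UMIs of *Lhx1* and of *Pax8* or *Pax2*. After thinning every cell to 7500 UMIs before applying the rule, the shares were 0.440 and 0.352% in WT and 0.558 and 0.502% in null, a 1.34-fold difference within overlapping intervals. Within a sex the shares were 0.715 and 1.24% of male WT cells against 1.45 and 1.78% of male null cells, and 0.946 and 0.644% of female WT cells against 1.32 and 1.29% of female null cells. The libraries of the genotypes did not overlap in either sex, and the intervals did. The larger count of cells removed for holding both *Tcf15* and *Sox2* was on the same side. Without these limits the shares were 1.32 and 1.51% in WT against 2.89 and 2.57% in null.

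**Figure D4:**
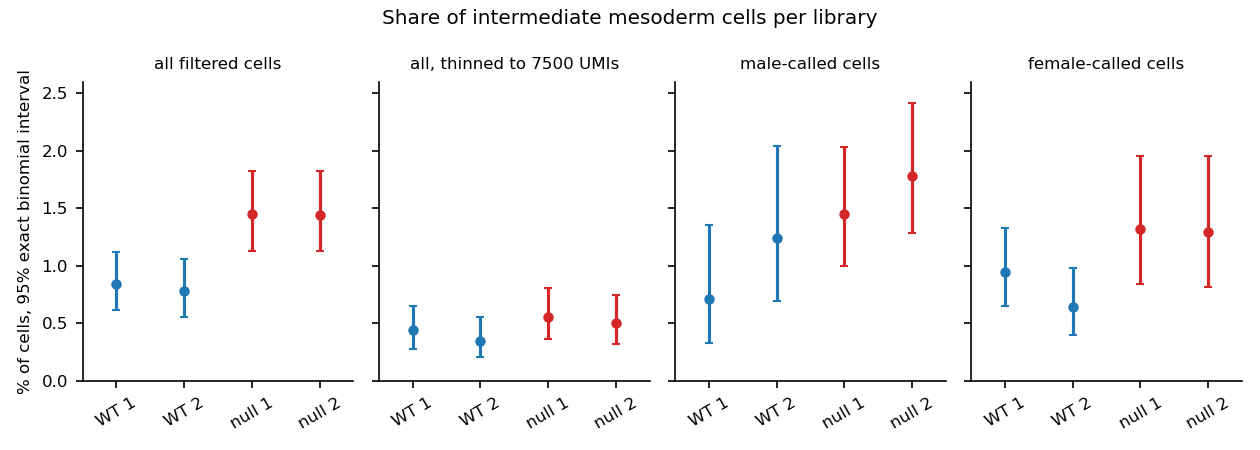
Share of intermediate mesoderm cells in each library, in percent of the filtered cells, of cells thinned to 7500 UMIs, of male-called cells and of female-called cells, with bars for the 95% exact binomial interval. The null libraries lie above the WT libraries in each panel, and after thinning the gap is narrow against the intervals.

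The genotypes were compared over all intermediate mesoderm cells on UMIs summed per library with edgeR's quasi-likelihood test and Benjamini-Hochberg adjustment. *Grhl3* itself gave no UMI in these cells in any library, while over all filtered cells it gave 878 and 803 UMIs in WT and 12 and 14 in null. Of 9749 genes tested, 157 were called at an adjusted p under 0.05 (1.61%), with 62 higher (0.636%) and 95 lower (0.974%) in null. DESeq2 called 47, of which all were among the 157. The median log2 fold change over all genes was 0.0038. Leaving out WT library 2 raised the count to 613, and leaving out null library 1 or 2 lowered it to 95 or 94.

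Since the sexes differ in share between the pools, each call was set beside its value within a sex. Of the 157 genes, 124 could be fitted in both sexes, and in 63 of them the male and female differences had opposite signs. In 61 the sign was the same in both. The share of opposite signs over all genes fitted in both sexes was not counted, here or for any list. Opposite signs were held by 14 of 23 Hox genes, 11 of 18 Wnt and Notch genes and 2 of 7 presomitic genes. The pooled call contains the cells of both sexes, so a shared sign follows in part from the choice of genes. Among the 55 genes higher in null that could be fitted, 46 had a positive log2 fold change in both sexes. Among the 69 genes lower in null that could be fitted, 54 had a positive log2 fold change in males. Of 146 called genes tested for the interaction with sex, 88 passed, 14 of 56 of those higher in null and 74 of 90 of those lower. Male-called cells alone gave 232 calls of 8007 genes (2.9%) and female-called cells alone 817 of 8128 (10.1%). Of the 157 pooled calls, 14 were called in the same direction in male cells alone and 135 in female cells alone.

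**Figure D5:**
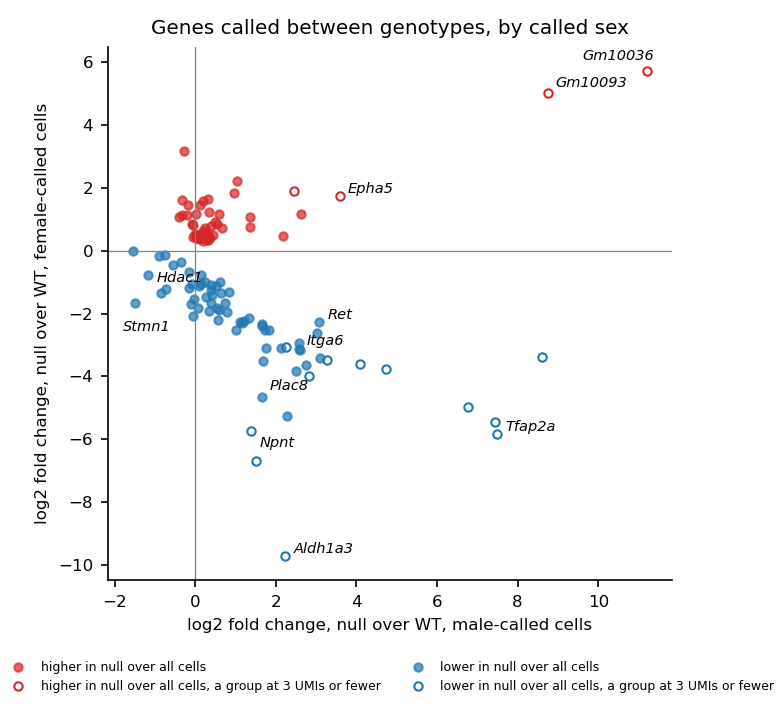
Log2 fold change of null over WT in male-called cells (x axis) against female-called cells (y axis) for the 124 called genes fitted in both, red for genes higher and blue for genes lower in null over all cells. Open points have a group at 3 UMIs or fewer, so that the fitted fold depends on the prior count; most blue points lie right of 0 and below 0, that is, lower in null females and higher in null males.

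Of the 20 genes with the largest fold over other cells, 8 were lower and none was higher in null, among them *Gpx6*, *Emx2*, *Aldh1a3*, *Ret*, *Id4*, *Plac8* and *Rmst*, with a median log2 fold change of -0.58. On that scale *Gpx6* was at 4.08 in males and -3.59 in females, and *Rmst*, with 0 UMIs in male WT cells, at 8.61 and -3.37. *Plac8*, which encodes a small cysteine-rich protein, fell from 206 and 117 CPM in WT to 24.2 and 23.5 CPM in null (log2 fold change -2.72 ± 0.20, SE, adjusted p = 1.6e-08). *Npnt* fell from 69.4 and 43.8 to 8.18 and 14.9 CPM (-2.27 ± 0.24, adjusted p = 1.2e-05), and *Id4*, an inhibitor of helix-loop-helix factors, from 68.3 and 57.4 to 16.4 and 16.9 CPM (-1.88 ± 0.17, adjusted p = 7.9e-07). Within males these 3 genes were higher in null, by 1.65, 1.39 and 2.28 on the log2 scale, of which *Npnt* did not pass (adjusted p = 0.26). Within females they were lower, at -4.64, -5.73 and -5.26 on that scale. Of the 14 tested genes of the nephric lineage and duct list, 6 were lower and none was higher in null (*Ret*, *Emx2*, *Wnt11*, *Npnt*, *Tfap2a* and *Bmp7*), with a median log2 fold change of -0.73. The median of the list was 1.63 in males and -2.10 in females, and 12 of the 13 genes fitted in both sexes had opposite signs. *Emx2* was lower by -0.86 ± 0.14 over all cells (adjusted p = 0.0012), at 0.58 in males (adjusted p = 0.40) and -1.89 in females (adjusted p = 1.2e-06). *Pcp4*, the leading gene of the cells, did not pass over all cells (-0.27 ± 0.12, adjusted p = 0.39), with 3.57 in males and -3.43 in females.

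The counts of the pathway lists stand beside the 1.61% of all genes called. Of 11 tested nephrogenic mesenchyme genes, 1 was higher and 1, *Wt1*, was lower (-1.74 ± 0.34, adjusted p = 0.0079), from 24.1 and 13.1 CPM in WT to 5.76 and 4.96 CPM in null. The share of cells with a *Wt1* UMI overlapped between genotypes, at 15.2 and 25% in WT and 20 and 10.1% in null. In male cells *Wt1* stood at 0 and 16.5 CPM in WT and at 4.10 and 8.03 CPM in null. In female cells it stood at 27.45 and 12.5 CPM in WT and at 6.82 and 1.08 CPM in null. Among 20 Bmp pathway genes *Id2* was higher and *Id4*, *Bmp7* and *Fst* lower, with a list median of 0.04. *Bmp7* was at 1.72 in males (adjusted p = 0.0685) and -2.53 in females, and *Fst* at -1.53 in males and -0.0043 in females (adjusted p = 0.995). The retinoic acid list had 1 of 12 genes higher, *Cyp26a1*, which degrades retinoic acid, and a median of -0.07. Of 25 Hox genes 1 was higher, *Hoxa5*, with a median of 0.07, and it was at -0.33 in males (adjusted p = 0.386) and 1.13 in females. *Fgf8* was the single called gene of the Fgf and Ret feedback list of 11, and *Notch2* and *Hes1* were the called genes of 19 in the Wnt and Notch list, all 3 higher in null over all cells, where *Fgf8* was at -0.046 in males (adjusted p = 0.967) and 0.80 in females. Of 14 markers that the study lists for intermediate mesoderm, chosen on these samples and so no independent evidence, 2 were higher, among them *Prrx1*, and the median was 0.21. That median was -0.31 in males and 0.84 in females, and 10 of the 14 genes had opposite signs. The epithelial and adhesion list had 4 of 26 genes called, *Cldn6* and *Cldn7* higher and *Itga6* and *Vim* lower. *Cldn6* and *Cldn7* are also in the gut list, whose 7 genes summed to at most 67.4 CPM in any library. No tested gene of the gut list could be fitted in males. Cells with 5 or more UMIs of gut markers numbered 1 and 0 in the WT libraries and 3 and 3 in the null libraries. *Itga6* was at 2.57 in males and -3.11 in females, and *Vim* at 0.38 in males (adjusted p = 0.221) and -1.08 in females. None of 8 tested genes of the dissociation response was called, all 8 had a log2 fold change below 0 (median -0.21), and the list summed to 336 and 272 CPM in WT and 239 and 275 CPM in null.

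Some genes were called in both sexes. Called over all cells and in each sex with the same sign were 9 genes, 7 higher (*Gm10036*, *Gm10093*, *Cyp26a1*, *Epha5*, *Has2*, and *Rpl38* and *mt-Nd3*, named after their values were seen) and 2 lower (*Stmn1* and *Hdac1*, the latter also named after its values were seen). Of these, *Gm10036* passed the interaction with sex (adjusted p = 0.044), with 0 UMIs in male WT cells. *Stmn1*, which encodes a microtubule-destabilising protein, fell from 1081 and 1101 CPM to 331 and 386 CPM (-1.57 ± 0.08, adjusted p = 5.3e-11), with -1.50 in males and -1.65 in females. *Hdac1*, a histone deacetylase gene, fell from 189 and 176 to 76.4 and 76.7 CPM (-1.22 ± 0.10, adjusted p = 3.4e-07). *Has2*, which makes the matrix polymer hyaluronan, rose from 27.5 and 30.1 to 56.4 and 52.6 CPM (0.95 ± 0.16, adjusted p = 0.0021). *Prrx1*, a mesenchymal homeobox gene, rose from 22.4 and 29.6 to 52.4 and 64.5 CPM (1.20 ± 0.18, adjusted p = 5.1e-04), at 0.95 in males (adjusted p = 0.15) and 1.82 in females.

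*Gm10036* rose from 4.02 and 5.11 CPM in WT to 320 and 270 CPM in null (6.04 ± 0.20, adjusted p = 1.0e-14), and *Gm10093* from 1.15 and 1.14 to 50.0 and 48.3 CPM (5.40 ± 0.34, adjusted p = 1.4e-09). Their transcripts are near-identical to those of other genes, *Gm10036* to *Rpl11* (99.3% over its full length), *Gm10093* to *Hdac1* (99.4%) and *Gm10282*, which was higher by 1.66 ± 0.24 (adjusted p = 3.7e-04), to *Hmgn2* (99.3%), so these counts and those of their partners are uncertain. *Rpl11* and *Hmgn2* were not called themselves (adjusted p = 0.156 and 0.0658). *Grhl3* occupies chr4:135541888-135573630, and a few genes named here, picked after their values were seen and not counted against the other tested genes of the chromosome, lie on it too, with *Hdac1* at chr4:129516104-129542713, *Snhg12*, which was higher in null (0.85 ± 0.15, adjusted p = 0.0024), at chr4:132308623-132311024, *Hmgn2* at chr4:133964738-133968650, *Stmn1* at chr4:134468320-134473843 and *Rpl11* at chr4:136028265-136053428. The differences were of like size in neighbouring mesoderm, at 5.86 for *Gm10036*, 5.59 for *Gm10093* and -1.44 for *Stmn1* in paraxial cells and 6.34, 5.73 and -1.71 in lateral plate cells.

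Genes of other cell types moved with the genotype. Of 9 tested presomitic mesoderm genes, 5 were higher in null (*Hes7*, *Rspo3*, *T*, *Fgf8* and *Cyp26a1*), and the list summed to 153 and 203 CPM in WT against 344 and 310 CPM in null, with *Rspo3* as its most abundant gene. Their log2 fold changes in males and females were 0.32 and 1.66 for *Hes7*, 0.18 and 1.57 for *Rspo3* and 0.49 and 0.91 for *T*. They were -0.046 and 0.80 for *Fgf8* and 2.63 and 1.18 for *Cyp26a1*. Of the 5, *Cyp26a1* alone was called in both sexes, and 0 of 8 tested genes of the list passed the interaction with sex. Of 4 tested gut genes, *Cldn6*, *Cldn7* and *Spink1* were higher, from a list sum of 21.2 and 10.2 to 44.6 and 67.4 CPM with *Epcam* most abundant. Cells with 5 or more UMIs of another type's markers numbered 4 and 5 in WT and 12 and 11 in null, most often for presomitic genes, of which *Hes7* was one of the markers used. Without those cells 124 of the 157 calls remained in the same direction among 178 in all, *Plac8* was at -2.69 and *Npnt* at -2.15, while *Rspo3* went to -1.11, *Hes7* to -0.55, *T* to -0.40, *Fgf8* to -0.18 and *Apela*, a peptide hormone gene, from 3.56 to 0.66 (adjusted p = 0.80). The cells were removed for holding such markers, so the lower value of *Hes7* follows in part from the choice, and the values of the other presomitic genes are not independent of it. Neuroepithelial, endothelial and notochord lists summed to at most 58.8 CPM in any library, *Trp63* and *Grhl3* of the surface ectoderm list were at 0 UMIs, and 2 of 4 tested genes of that list, *Tfap2a* and *Wnt6*, were lower in null over all cells. The 3 genes of that list fitted in both sexes had opposite signs, and 3 of 4 passed the interaction with sex. *Wnt6* was 1.55-fold higher in null among male cells (0.523 to 6.21) and 3.02-fold lower among female cells (1.79 to 5.29).

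The genotype difference in intermediate mesoderm was then tested against that in its neighbours. Against paraxial cells 150 of 12413 genes passed (1.21%) and against lateral plate cells 155 of 13771 (1.13%). Among those genes, 55 and 49 had a more positive difference in intermediate mesoderm and 95 and 106 a more negative one. Presomitic mesoderm genes passed in 7 of 9 and 8 of 10 tested. *Plac8* had a difference of -2.93 relative to paraxial cells, where its own difference was 0.22, and -3.07 relative to lateral plate cells, where it was 0.37 (adjusted p = 2.8e-11 and 1.1e-16). *Npnt* had differences of -2.90 and -2.35 (adjusted p = 1.2e-05 and 5.7e-07), with 0.65 in paraxial and 0.09 in lateral plate cells. *Stmn1* did not pass in either test (adjusted p = 0.60 and 0.54). The tests share the intermediate mesoderm cells and pools, and the sex difference in *Plac8* and *Npnt* described above enters both.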

How the data were processed

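The authors aligned reads from a droplet 3′ kit to mm10 with Cell Ranger 3.0.0 and deposited unnormalised counts of UMIs for each gene in each cell. Counts were used as deposited. The cells, lists and tests were chosen with earlier results of these data known.

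UMIs were summed per library and cell set and tested with edgeR 4.0.16 (TMM, filterByExpr, quasi-likelihood test, Benjamini-Hochberg adjustment) in R 4.3.3. Genes of the rule stayed in the fits and their adjustment, 9752 genes in the genotype fit, and were left out of the counts and results given. DESeq2 1.42.0 was an alternative. On simulated counts with 200 genes changed by a log2 fold change of 2, the genotype fit recovered 190 with 23 wrong calls among 9569 genes, and the interaction fit with paraxial cells 152 with 15 wrong calls among 12150. In both fits the wrong calls were more than 5% of the calls, the rate set by the threshold. The interaction fits with lateral plate cells and with sex were not simulated. The libraries of a genotype were not one library deposited again (a chi-square test of their summed cells gave 2.01 per degree of freedom in WT and 1.52 in null), so each was counted. Genes named were those of the gene lists, the 20 by fold over other cells, and those with an adjusted p under 0.05 and at least 10 CPM, 15 in each direction for the genotype test and 5 for each interaction. Scrublet in scanpy 1.11.5 marked at most 0.041% of cells as doublets, so the 5% highest scores were removed in an alternative only. Intervals are exact (Clopper-Pearson, 95%) and cover counting error. Positions are from GENCODE M21 on mm10, and transcripts were compared by blastn 2.17.0. Other alternatives changed the normalization, count filter, cell rule, depth, sex and library. Results that need certain withheld genes are not reported here.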

Additional observations from a re-analysis of the deposited data

Results flagged for a closer look

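By edgeR's interaction test, 88 of the genes called over all cells had a genotype difference that was not the same in male-called and female-called cells, and 25 of them are listed here. The 25 leave out others named above that passed, among them *Gpx6* and *Rmst*. Adjusted p was lowest among these 25 for *Itga6* (2.7e-11), *Plac8* (9.4e-11), *Aldh1a3* (2.3e-10), *Tfap2a* (1.7e-09), *Crip1* (1.8e-09), *Id4* (3.3e-09), *Ret* (1.2e-08) and *Npnt* (2.8e-08). It was 2.1e-07 for *Cdh3*, 7.8e-07 for *Ucp2*, 1e-05 for *Bmp7*, 0.00014 for *Hoxa5*, 0.00015 for *Vim*, 0.00019 for *Emx2*, 0.00058 for *Slco3a1* and 0.00083 for *Plet1*. It was 0.001 for *Aes*, 0.0016 for *Wnt11*, 0.002 for *Ctsc*, 0.0062 for *Nrarp*, 0.007 for *Snhg12*, 0.008 for *Slc2a3*, 0.0087 for *Fst*, 0.042 for *Colec12* and 0.044 for *Gm10036*. Sex and embryo cannot be told apart within a genotype.

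A LacZ sequence among the counted features gave 13 and 22 UMIs in the filtered cells of the null libraries and 0 in both WT libraries, and 0 in intermediate mesoderm cells of every library.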

How the results depend on the processing

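The share was larger in null under every alternative run, the sexes taken apart included, at ratios of 1.34 to 1.94; the exact p of 0.333 is the smallest the design allows and says nothing of stability. The count of 157 genes changed to 47 with DESeq2, 258 with the replicate block (156 of the 157 among them; the shared numbers are not known to pair the libraries), 77 without the highest doublet scores, 18 after thinning the chosen cells to 7500 UMIs, 316 with *Pax8* and *Pax2* at 3 or more, 89 with *Lhx1* at 2 or more, 817 in female-called cells and 73 with a log2 fold change of at least 1. Leaving out a library gave 94 to 613. Higher calls were 39.5% of all and 65.5% in male-called cells. Leaving out a library gave 71 to 559 genes for the difference from paraxial cells, 77 to 607 from lateral plate cells and 499 to 1000 between the sexes. In male-called cells the log2 fold change reversed for genes that include *Nrarp* (-0.29), *Colec12* (-0.18), *Fgf8* (-0.046), *Hoxa5* (-0.33), *Plac8* (1.65), *Npnt* (1.39), *Aldh1a3* (2.23), *Id4* (2.28), *Cdh3* (6.77), *Crip1* (7.43), *Ucp2* (2.82), *Tfap2a* (7.49), *Ret* (3.08), *Emx2* (0.58), *Bmp7* (1.72), *Itga6* (2.57), *Vim* (0.38), *Gpx6* (4.08) and *Rmst* (8.61). Fitted folds of genes near 0 UMIs depend on the prior count. *Xist*, which defines the sex calls, went to 0.31 in female-called cells. *Slc2a3* went to -0.16 with the rule on thinned cells, and *T* to -0.15 without the highest doublet scores, -0.54 after thinning and -0.40 without cells holding other types' markers, where *Hes7* (-0.55), *Rspo3* (-1.11) and *Fgf8* (-0.18) also reversed. That exclusion of cells was chosen after seeing the data. Apart from these shown, the cause of the changes was not tested. Depth set how many genes could be tested, 9749 at full depth and 5766 after thinning the chosen cells.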
